A study of Mus musculus with 10 samples.

Results

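S100 proteins are small calcium-binding proteins, and the genes described here are the 7 members of the family called S100a1, S100a4, S100a6, S100a10, S100a11, S100a13 and S100a16 in the deposited table, which holds 23479 entries in all. They were chosen by name and not by a rule on their values, though with earlier results of these data known. They were followed in clone 4T1-T, a population grown from a single cell of the mouse mammary carcinoma line 4T1, which spreads from the mammary gland to distant organs. Every group was this clone, kept in high-glucose DMEM with 5% fetal bovine serum, 5% fetal calf serum, non-essential amino acids and antibiotics, and every group carried a short hairpin RNA. The control hairpin targets Renilla luciferase (shRenilla). The others target the secreted protease inhibitors Serpine2 (shSerpine2-1 and shSerpine2-2) and Slpi (shSlpi-1 and shSlpi-2). Each of the 5 groups had 2 libraries, A and B. All groups come from 1 clone, so the values describe that clone. No label says whether libraries A and B were separate cultures. The p-values set differences against the spread of such library pairs, and that spread may be technical only.

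An S100 protein is usually a dimer, and each subunit has a pair of EF-hands, the loops that hold calcium. When calcium binds, the dimer opens a groove that takes up a partner protein, so the proteins act as calcium-dependent adaptors of the cytoskeleton, membranes and enzymes, and some also act outside the cell on receptors such as Ager (RAGE). S100a4 is tied to metastasis of mouse mammary tumours and binds the heavy chain of nonmuscle myosin. The questions asked of the data were how strongly each gene is transcribed in this clone and whether its level differs when Serpine2 or Slpi is lowered.

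In short, S100a6 gave the smallest adjusted p of the 7 genes. It was higher with both Slpi hairpins than in the control (log2 fold change 0.57, SE 0.13, limma adjusted p = 0.00345, 4 against 2 libraries). That made 1 call among the 6 genes tested, where 34.8% of all genes were called. The call was lost with the mean of each hairpin as 1 unit, where the control had 1 value and no gene of all those tested was called. S100a6 also rose together with S100a4 under shSerpine2-2, where both calls were near the threshold. S100a11, which per length is nearly as abundant as S100a4, was below both control libraries in 7 of the 8 knockdown libraries, without passing the test. How many of all genes show such separations of libraries was not counted, here or for the separations given below. S100a13 was lower with the Serpine2 hairpins than with the Slpi hairpins. Libraries A and B of shSlpi-2 differed from each other by 0.50 to 0.78 on the log2 scale for 5 of the 6 genes tested, and results are given with and without them.

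All 7 genes lie on chromosome 3 (GRCm38, GENCODE M21 annotation) and are annotated as protein coding. S100a1 (ENSMUSG00000044080) spans 90511034 to 90514392 on the minus strand, and the others are on the plus strand. S100a13 (ENSMUSG00000042312) spans 90514435 to 90524581, S100a16 (ENSMUSG00000074457) 90537254 to 90543151, S100a4 (ENSMUSG00000001020) 90603771 to 90606045 and S100a6 (ENSMUSG00000001025) 90612882 to 90624181. S100a11 (ENSMUSG00000027907), at 93520488 to 93526287, and S100a10 (ENSMUSG00000041959), at 93555080 to 93564643, stand apart from these, 2824766 bp beyond the last gene of the cluster. S100a4 and S100a6 are separated by the short gene S100a5. S100a4 shares 302 bp, 51.7% of its exonic length, with the gene model Gm42674, so its reads may have been split or left uncounted, depending on how the counting treated such overlaps. S100a11 has an annotated processed copy, S100a11-ps, with which it may share reads.

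The upstream DNA of the 3 most abundant genes is shown first. Each sequence is the RefSeq promoter on GRCm38.p6, plus strand, 5′ to 3′, from 250 bases before the transcript start, ending before the first annotated start. Capitals mark matches to 5 short motifs searched on both strands, which were TATAAA (the TATA box), CCAAT (the CCAAT box), GGGCGG (the GC box), TGANTCA (the site type of AP-1 factors) and CACGTG (a type of E-box). No 2 of them overlap in these windows. The S100a4 sequence is chr3:90603520-90603769, that of S100a6 is chr3:90612644-90612881 and that of S100a11 is chr3:93520246-93520487. The last sequence is the whole 42 bp at chr3:90514393-90514434 between S100a1 and S100a13, which are transcribed away from each other.
S100a4: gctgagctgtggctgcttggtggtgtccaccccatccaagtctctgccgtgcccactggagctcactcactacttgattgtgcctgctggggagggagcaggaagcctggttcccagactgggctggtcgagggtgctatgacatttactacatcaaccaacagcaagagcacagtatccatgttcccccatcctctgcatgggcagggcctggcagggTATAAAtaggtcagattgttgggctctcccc
S100a6: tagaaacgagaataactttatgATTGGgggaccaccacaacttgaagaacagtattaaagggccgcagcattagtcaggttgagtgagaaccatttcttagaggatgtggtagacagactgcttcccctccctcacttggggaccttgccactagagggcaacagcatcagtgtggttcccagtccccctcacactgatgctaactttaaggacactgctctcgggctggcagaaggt
S100a11: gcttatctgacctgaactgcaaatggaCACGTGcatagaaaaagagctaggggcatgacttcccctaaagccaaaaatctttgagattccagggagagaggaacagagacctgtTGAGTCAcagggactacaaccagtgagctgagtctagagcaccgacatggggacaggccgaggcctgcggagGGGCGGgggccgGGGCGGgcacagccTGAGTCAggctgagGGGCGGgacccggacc
Between S100a1 and S100a13: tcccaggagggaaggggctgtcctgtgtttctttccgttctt

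The 3 windows held different motifs. S100a4 had TATAAA starting 31 bases before the start, a motif present in 12.4% of the 32851 RefSeq mouse promoters searched over the same length. S100a6 had a single match, CCAAT on the other strand (printed as ATTGG), 228 bases before the start, and 33.8% of promoters hold one. S100a11 had GGGCGG at 64, 52 and 24 bases before the start (32.7% of promoters hold at least 1), TGANTCA at 136 and 38 bases (6.75%) and CACGTG at 223 bases (6.02%). None of the 3 windows shared a motif with another. A match only describes the letters in the window.

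The libraries held 15877431 reads (shSerpine2-1 B) to 24026620 reads (shSerpine2-2 B). Serpine2 was at 3145 to 3256 normalized counts in shRenilla, 128 to 139 in shSerpine2-1 and 489 to 514 in shSerpine2-2, and also lower in the Slpi groups (1331 to 1731). Slpi was at 1189 to 1313 in shRenilla, 145 to 147 in shSlpi-1 and 60.9 to 75.7 in shSlpi-2, and at 326 to 415 in shSerpine2-1. All 8 epithelial markers were measured, and their summed level was 21832 to 22400 in shRenilla, 25776 to 27261 in the Serpine2 groups, 27535 to 27938 in shSlpi-1 and 31898 to 31930 in shSlpi-2. The 7 leukocyte markers summed to 6.32 to 12.1 in shRenilla and 52.2 to 73.9 in shSlpi-2, with Cd3e and Mpo among those at 0 in both control libraries, and the 5 endothelial markers to 13.7 to 18.7 and 39.6 to 72.9, with Emcn at 0 in both. The 5 fibroblast markers summed to 8.43 to 12.1 and 23.2 to 23.7, with Col3a1 and Lum at 0 in both control libraries. None of these 17 genes reached the mean of 10 needed for testing. The ribosomal RNA entry Rn45s took 1.00% to 1.21% of reads in shRenilla and 6.88% to 6.91% in shSlpi-2. The part of these differences in the results below was not tested, and in bulk RNA fewer cells of a kind and less RNA per cell cannot be told apart.

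Levels differed widely between the genes. Per kilobase of exon, S100a4 had a mean of 28840 normalized counts and ranked 5th of 11563 genes with a known length, and S100a11 had 26240 and ranked 6th. S100a6, at 16872, ranked 13th and S100a10, at 4651, ranked 80th. S100a1 (230, rank 3592) and S100a13 (109, rank 5795) were of middling level. S100a16 had 4 to 9 reads in each library, a mean of 6.64 normalized counts, and was below the mean of 10 required for testing, so 6 of the 7 genes were tested.

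**Figure D1:**
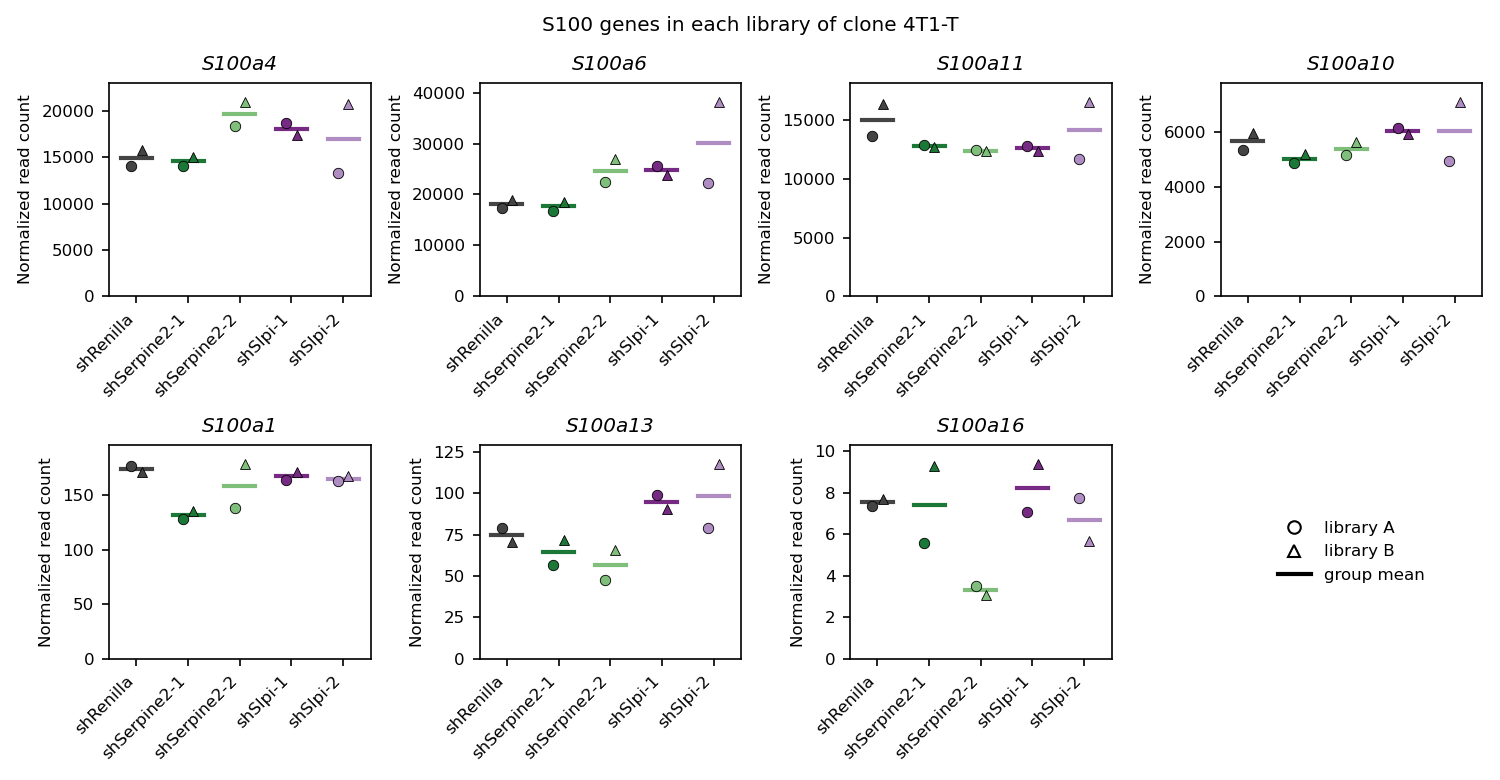
Normalized read count of each S100 gene (vertical axes, starting at 0 and differing between panels) in the 10 libraries, with circles for library A, triangles for library B and a bar for the group mean. The points of shSlpi-2 lie far apart for S100a4, S100a6, S100a10, S100a11 and S100a13, and close together for S100a1.

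S100a4, also called metastasin, was read at 14064 and 15785 normalized counts in shRenilla A and B. The values were 14039 and 15075 in shSerpine2-1, 18405 and 20975 in shSerpine2-2, and 18728 and 17377 in shSlpi-1. The shSlpi-2 libraries gave 13280 and 20697. Both shSerpine2-2 and both shSlpi-1 libraries therefore lay above both controls, shSerpine2-1 overlapped the controls, and the shSlpi-2 libraries were the lowest and the second highest of all. Group means ordered as shSerpine2-2 (19690 ± 1817, SD, n = 2), shSlpi-1 (18053 ± 955), shSlpi-2 (16988 ± 5245), shRenilla (14924 ± 1217) and shSerpine2-1 (14557 ± 733), and each neighbouring pair in this order overlapped.

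S100a6, or calcyclin, is an S100 protein of proliferating and migrating cells that binds the calcyclin-binding protein Cacybp. It was read at 17263 and 18880.0 normalized counts in shRenilla, 16721 and 18546 in shSerpine2-1, and 22374 and 26954 in shSerpine2-2. The Slpi groups gave 25681 and 23800.2 (shSlpi-1) and 22229 and 38191 (shSlpi-2). All 6 libraries of shSerpine2-2, shSlpi-1 and shSlpi-2 lay above both control libraries, and shSerpine2-1 overlapped them. The group means were 30210.0 ± 11286 in shSlpi-2, 24741 ± 1330.0 in shSlpi-1, 24664 ± 3238 in shSerpine2-2, 18072 ± 1143 in shRenilla and 17634 ± 1291 in shSerpine2-1 (SD, n = 2). The only gap without overlap between neighbours in this order was that between shSerpine2-2 and shRenilla.

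S100a11, or calgizzarin, binds annexin A1 and takes part in membrane repair and the control of growth. It was read at 13656 and 16408 normalized counts in shRenilla, 12934 and 12743 in shSerpine2-1, 12441 and 12395 in shSerpine2-2, and 12820 and 12387 in shSlpi-1. The shSlpi-2 libraries gave 11735 and 16568. The 6 libraries of the first 3 knockdown groups were thus all below both controls and close to each other, while shSlpi-2 held both the lowest and the highest value of the series. The control libraries themselves differed by more than those 3 groups did, with means of 15032 ± 1946 in shRenilla against 12838 ± 135, 12418 ± 32.5 and 12604 ± 306 (SD, n = 2).

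S100a10, or p11, is unusual in the family because it stays in the open form without calcium. A pair of S100a10 subunits and a pair of annexin A2 molecules form a complex at the cell membrane that can bind plasminogen. It was read at 5361 and 5987 normalized counts in shRenilla, 4868 and 5201 in shSerpine2-1, 5160.2 and 5642 in shSerpine2-2, 6151 and 5922 in shSlpi-1, and 4962 and 7111 in shSlpi-2. Both shSerpine2-1 libraries were below both controls and the other groups overlapped the controls.

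S100a1 is best known from heart and skeletal muscle, where it binds the ryanodine receptor and the calcium pump Atp2a2. It was read at 177 and 172 normalized counts in shRenilla, 128 and 136 in shSerpine2-1, 139 and 178 in shSerpine2-2, 164 and 172 in shSlpi-1, and 163 and 168 in shSlpi-2. Only shSerpine2-1 stood clear of the other groups, below all 8 other libraries. S100a13, which takes part in the release of Fgf1 and interleukin-1 alpha, proteins without a signal peptide, was read at 79.0 and 70.5 in shRenilla, 56.8 and 72.0 in shSerpine2-1 and 47.4 and 65.9 in shSerpine2-2. It was read at 98.8 and 90.5 in shSlpi-1 and at 79.3 and 117 in shSlpi-2. All 4 Slpi libraries were above both controls, and all 4 Serpine2 libraries were below all 4 Slpi libraries.

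S100a16 had 7 reads in each control library, 5 and 8 in shSerpine2-1, 4 and 4 in shSerpine2-2, 7 and 9 in shSlpi-1, and 8 and 6 in shSlpi-2. In a fit without the filter, limma's lowest adjusted p for it against the control was 0.181 (shSerpine2-2, log2 fold change -0.996, SE 0.41), so no difference was detectable at this depth.

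Together the 7 genes gave 48752 to 82857 normalized counts per library. The share of each gene in that sum does not depend on how libraries are scaled to each other. S100a6 made up 32.9% to 34.1% of the sum in shRenilla, 34.3% to 35.8% in shSerpine2-1, 38.2% to 40.7% in shSerpine2-2, 39.8% to 40.3% in shSlpi-1 and 42.4% to 46.1% in shSlpi-2. S100a11 made up 27.0% to 28.6% in shRenilla, 24.6% to 26.5% in shSerpine2-1, 18.7% to 21.2% in shSerpine2-2, 20.1% to 20.7% in shSlpi-1 and at most 22.4% in shSlpi-2. The shSlpi-2 libraries, which lay on either side of the controls in the level of S100a11, were both below them in its share. For S100a6 both were above the controls in level as well as in share. S100a4 made up 27.5% to 27.8% in shRenilla and 28.8% to 31.7% in shSerpine2-1, shSerpine2-2 and shSlpi-1. In shSlpi-2 its share was below the controls, at 25.0% to 25.3%. The shares add up to the whole, so a higher share of one gene lowers those of the rest.

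Of the 10 other S100 genes found in the table, S100a3 and S100a7a were tested. S100a3, a neighbour of S100a4 whose annotated span also holds S100a2, was at 55.8 and 67.2 in shRenilla, 44.1 to 64.3 in the 4 Serpine2 libraries and 66.6 to 99.8 in the 4 Slpi libraries. It was lower with the Serpine2 than with the Slpi hairpins (log2 difference -0.61, SE 0.16, adjusted p = 0.0155). S100a7a stayed between 39.6 and 50.5 in all libraries. S100a2 had a mean too low for testing. In the limma fit without the filter it was called as higher with both Slpi hairpins (1.37, SE 0.39, adjusted p = 0.0348) and under shSlpi-2 (1.43, adjusted p = 0.0366). It did not pass there under shSlpi-1 (1.30, adjusted p = 0.125). S100a14, an epithelial S100 gene next to S100a13, had 1 to 11 reads per library. S100a8 and S100a9, the subunits of calprotectin of neutrophils and monocytes, had 0 to 7 reads and 0 to 1 reads per library, and S100z had 0 in all.

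Against the control, with the mean of both Serpine2 hairpins, limma called 0 of the 6 genes, where it called 21.5% of all 12299 genes tested. The voom form of limma on the recovered reads also called 0. At an unadjusted p under 0.05 there were 2, S100a11 (log2 fold change -0.25, SE 0.09, adjusted p = 0.0700) and S100a1 (-0.27, SE 0.12, adjusted p = 0.101). The changes of S100a4 (0.18) and S100a6 (0.20) were averages of hairpins that differed. The median over the 6 genes was -0.18, beside -0.0014 over all genes.

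The Serpine2 hairpins differed in S100a4 and S100a6. Under shSerpine2-2 both rose, S100a4 by 0.40 on the log2 scale (SE 0.13, adjusted p = 0.0308, with a ratio of group means of 1.32) and S100a6 by 0.44 (SE 0.16, adjusted p = 0.0429), the 2 of the 6 genes called where 27.5% of all genes were. Under shSerpine2-1 they were at -0.03 and -0.04, and 0 of the 6 genes were called by limma or its voom form, where 10.5% of all genes were called. S100a1 alone was under an unadjusted p of 0.05 there (-0.40, SE 0.13, adjusted p = 0.0652). Tested directly, shSerpine2-1 was lower than shSerpine2-2 in S100a4 by a log2 difference of -0.43 (SE 0.13, adjusted p = 0.0337) and in S100a6 by -0.48 (SE 0.16, adjusted p = 0.0478), a comparison in which 14.7% of all genes were called. These 4 calls were near the threshold. The S100a4 calls were lost when any 1 library of shRenilla, shSerpine2-1 or shSerpine2-2 was left out (adjusted p up to 0.230 against the control and 0.262 between hairpins), and those of S100a6 also when 1 library of shSlpi-1 was (up to 0.302 and 0.338). All 4 were also lost with no filter on low counts (adjusted p 0.177 to 0.246) or without the trend (0.185 to 0.240), and those of S100a6 with quantile normalization (0.100 and 0.0934) or scaling to library totals (0.0594 and 0.0591). Leaving out both shSlpi-2 libraries lowered the adjusted p to 1.87e-07 and 1.16e-07 for S100a4 and to 1.94e-07 and 1.31e-07 for S100a6.

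With both Slpi hairpins together, limma called 1 of the 6 genes, S100a6, where 34.8% of all genes were called. S100a6 rose by 0.57 (SE 0.13, adjusted p = 0.00345), with all 4 libraries above both controls. S100a13 (0.35, adjusted p = 0.157), S100a4 (0.21, adjusted p = 0.152) and S100a11 (-0.18, adjusted p = 0.158) did not pass. These values turned on single shSlpi-2 libraries. Without shSlpi-2 A, S100a4 was at 0.38 (adjusted p = 1.33e-07), S100a13 at 0.49 (adjusted p = 0.0262) and S100a10 at 0.21 (adjusted p = 2.99e-04), all called as rising, and S100a11 was at -0.05. Without shSlpi-2 B, S100a11 was called as falling (-0.30, adjusted p = 2.82e-06), and S100a4 was at 0.05, S100a13 at 0.21 and S100a10 at -0.05. The S100a6 change was 0.77 without shSlpi-2 A, 0.38 without shSlpi-2 B and 0.45 without both. Its call was lost without shRenilla A (0.51) and without the mean-variance trend (adjusted p = 0.0761). It was also lost with the mean of each hairpin taken as 1 unit, where the control had 1 value and no gene of all those tested was called.

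By single hairpin, S100a6 rose by 0.69 under shSlpi-2 (SE 0.16, adjusted p = 0.00186), the only 1 of the 6 called where 42.4% of all genes were. Library A alone put this change at 0.30 and library B alone at 1.08, and without the mean-variance trend the adjusted p was 0.0557. Under shSlpi-1, limma and its voom form called 0 of the 6, where 17.5% of all genes were called, and 3 genes were under an unadjusted p of 0.05: S100a6 (0.45, adjusted p = 0.0537), S100a4 (0.28, adjusted p = 0.161) and S100a11 (-0.25, adjusted p = 0.127). Tested against each other, the Slpi hairpins gave 0 calls among the 6 with either form, and 0 at an unadjusted p under 0.05, where 26.1% of all genes were called. The difference in S100a6 was -0.24 (SE 0.16, adjusted p = 0.283). It was -0.63 without shSlpi-2 A (adjusted p = 3.98e-08) and 0.15 without shSlpi-2 B (adjusted p = 0.0923).

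The Serpine2 and Slpi hairpins were compared with each other, a comparison that leaves the control out. S100a13 was lower with the Serpine2 hairpins by a log2 difference of -0.67 (SE 0.15, adjusted p = 0.00652) and S100a6 by -0.37 (SE 0.11, adjusted p = 0.0287), 2 of 6 where 17.5% of all genes were called. For S100a13 the call held with each library left out, with differences of -0.53 to -0.81 when that library was from shSlpi-2, and was lost with hairpins as units (adjusted p = 0.985). On the deposited log2 scale, which flattens weakly expressed genes, the S100a13 difference was -0.26. The S100a6 difference was -0.17 without shSlpi-2 B and -0.56 without shSlpi-2 A, and its call was lost when 1 library of shRenilla, shSerpine2-1 or shSlpi-1, or shSerpine2-2 A, was left out (adjusted p 0.0541 to 0.143), with only the compared groups fitted (0.0542), with no filter (0.127) and without the trend (0.195). With hairpins as units the S100a6 call was lost too (adjusted p = 0.985). S100a4 did not pass (-0.03, adjusted p = 0.842).

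**Figure D2:**
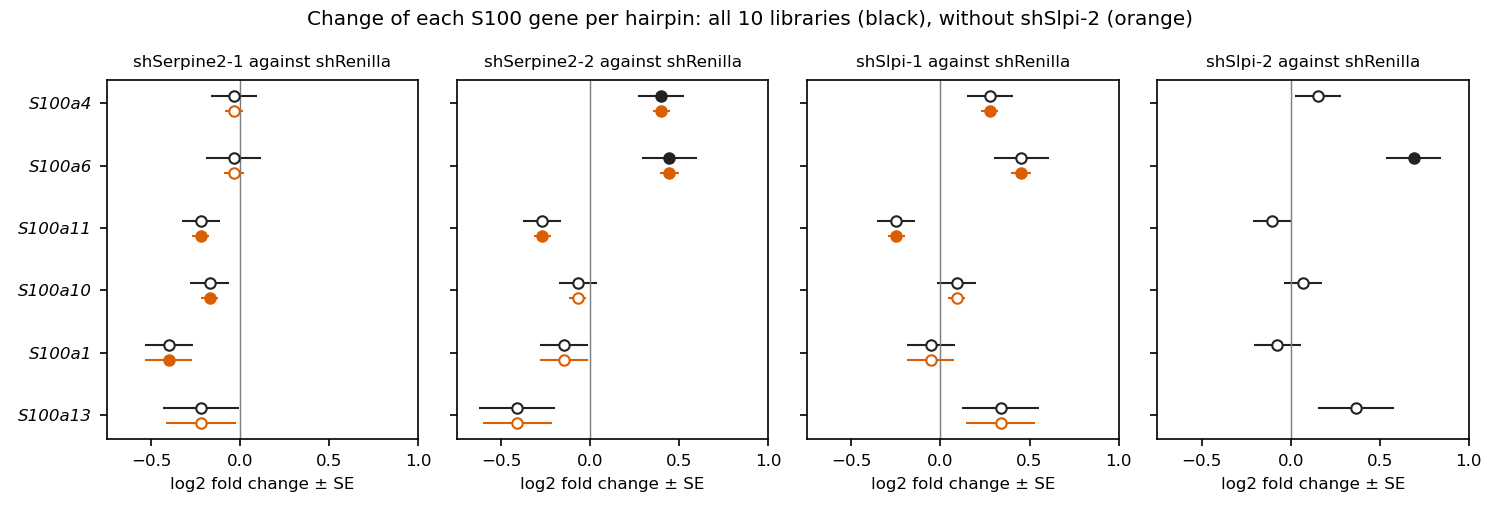
Log2 fold change of the 6 tested S100 genes against shRenilla for each hairpin (horizontal axes), with the SE as bars, from the fit of all 10 libraries (black) and from the fit without both shSlpi-2 libraries (orange). Filled points have a limma adjusted p under 0.05. The estimates of the first 3 panels are the same in both fits, and the bars of the abundant genes S100a4, S100a6, S100a10 and S100a11 are shorter in the second.

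The shSlpi-2 libraries set much of the spread against which these changes were tested. In shSlpi-2, library B exceeded library A by 0.78 on the log2 scale for S100a6, 0.64 for S100a4, 0.56 for S100a13, 0.52 for S100a10 and 0.50 for S100a11, but by 0.04 for S100a1. The median over all tested genes was 0.00 there, and over the 568 tested genes of like exonic length (511 to 1367 bp) it was 0.25. In shRenilla the same differences were 0.26 for S100a11, 0.17 for S100a4, 0.16 for S100a10 and 0.13 for S100a6, with a median of 0.06 over genes of like length. S100a13 was at -0.16 there. S100a4, S100a6 and S100a10 were higher in B than in A in both Serpine2 groups too (0.10 to 0.27), so B was above A for these 3 genes in 4 of the 5 groups, while S100a11 was near 0 in the Serpine2 groups (-0.02 and -0.01). S100a13 was at 0.34 and 0.47 in the Serpine2 groups. Within shSlpi-1, S100a4, S100a6, S100a10, S100a11 and S100a13 were lower in B, at -0.05 to -0.12. Genes of this length also moved between groups: against the control their median was 0.19 under shSlpi-2, 0.08 under shSlpi-1, 0.10 under shSerpine2-2 and -0.06 under shSerpine2-1, and 0.12 with both Slpi hairpins. The part of this shift in the S100a6 result was not tested.

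**Figure D3:**
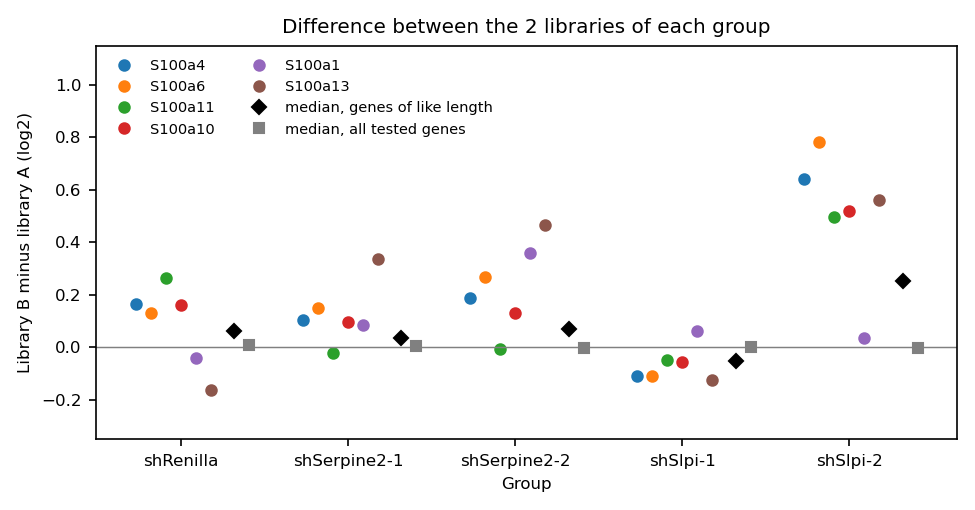
Log2 difference between library B and library A of each group (vertical axis) for the 6 tested S100 genes (coloured circles), with the median over 568 genes of like length (black diamonds) and over all tested genes (grey squares). In shSlpi-2, 5 of the 6 genes lie between 0.50 and 0.78, above both medians.

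Without both shSlpi-2 libraries the fold changes of the other groups were the same and their errors smaller. Both Serpine2 hairpins together then gave 4 calls among the 6, where 31.8% of all genes were called: S100a4 (0.18, adjusted p = 0.00136) and S100a6 (0.20, adjusted p = 0.00131) rose, and S100a10 (-0.12, adjusted p = 0.0231) and S100a11 (-0.25, adjusted p = 2.88e-05) fell. Over all 24 alternatives the adjusted p of S100a4 in this comparison ran from 8.16e-04 to 0.940, and that of S100a11 from 2.33e-05 to 0.932. Under shSlpi-1 there were 3 calls, where 27.0% of all genes were called: S100a4 (0.28, adjusted p = 7.40e-05) and S100a6 (0.45, adjusted p = 2.01e-07) rose and S100a11 (-0.25, adjusted p = 1.80e-04) fell. Under shSerpine2-2 the same 3 genes were called, where 37.9% of all genes were, with S100a11 at -0.27 (adjusted p = 4.21e-05). Under shSerpine2-1 there were 3 falls, where 19.9% of all genes were called: S100a11 (-0.22, adjusted p = 0.00100), S100a10 (-0.17, adjusted p = 0.00897) and S100a1 (-0.40, adjusted p = 0.0301). Between the Serpine2 hairpins S100a4 and S100a6 were called as before, where 25.9% of all genes were. Between the Serpine2 hairpins and shSlpi-1, where 17.2% of all genes were called, S100a6 (-0.25), S100a10 (-0.21) and S100a13 (-0.65) were lower. S100a11 was at -0.22 to -0.27 under all 3 hairpins of this smaller set, which share the control libraries, and leaving out shRenilla A or B in the full fit moved the value for both Serpine2 hairpins to -0.38 or -0.11.

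The protein partners of the S100 genes were counted from a list of 16 genes, all tested. With both Serpine2 hairpins 4 rose and 1 fell, where 21.5% of all genes were called, and with both Slpi hairpins 5 rose and 2 fell, where 34.8% were, with medians of 0.04 and 0.08 beside -0.0014 and -0.0055 over all genes. Anxa2, the annexin that S100a10 binds, was at 5537 and 5423 normalized counts in shRenilla and at 6064 to 7592 in the 8 knockdown libraries. It rose by 0.24 with both Serpine2 hairpins (adjusted p = 0.00101) and by 0.35 with both Slpi hairpins (adjusted p = 1.35e-05), while S100a10 itself stood at -0.12 and 0.08. Ahnak, a giant scaffold protein that binds the complex of S100a10 and annexin A2, rose by 0.27 (adjusted p = 0.00384) and 0.37 (adjusted p = 1.37e-04).

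Between the Serpine2 hairpins 3 of the 16 partners were called, where 14.7% of all genes were, with Anxa1 and Ahnak higher and Anxa2 lower in shSerpine2-1. Anxa1, a partner of S100a11, rose under shSerpine2-1 (0.20, adjusted p = 0.00917) and shSlpi-1 (0.30, adjusted p = 3.11e-04) and was at -0.08 under shSerpine2-2 and -0.02 under shSlpi-2, and shSerpine2-1 was above shSerpine2-2 by 0.28 (adjusted p = 8.47e-04). Myh9, the myosin heavy chain bound by S100a4, rose with both Serpine2 hairpins together (0.15, adjusted p = 0.0274) and under shSlpi-2 (0.23, adjusted p = 0.00163). By single Serpine2 hairpin it was called under shSerpine2-1 and not under shSerpine2-2. Nor was it called under shSlpi-1 or with both Slpi hairpins together, and it differed between the Slpi hairpins. Cacybp, named for its binding to S100a6, was at 0.02 with both Serpine2 hairpins and -0.05 with both Slpi hairpins and did not pass. Iqgap1, a scaffold of the cell cortex, rose in both (0.21 and 0.23), and Mdm2, the ubiquitin ligase of p53, fell in both (-0.14 and -0.30).

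**Figure D4:**
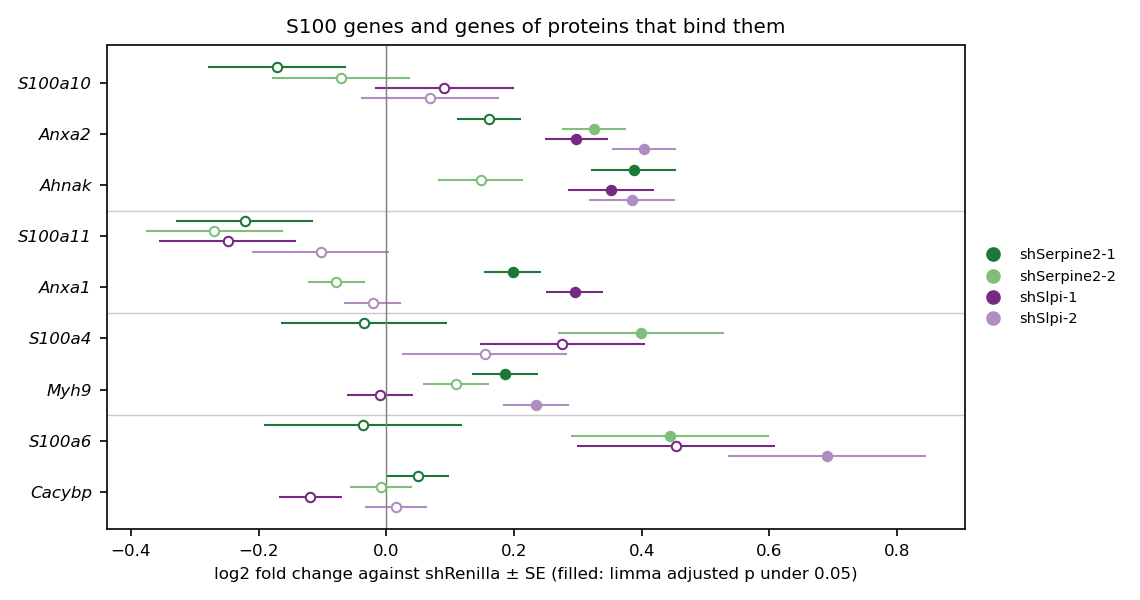
Log2 fold change against shRenilla (horizontal axis, SE as bars) for 4 S100 genes, each above the genes of proteins that bind it, for the 4 hairpins. Filled points have an adjusted p under 0.05. Anxa2 and Ahnak lie to the right of 0 for all 4 hairpins, while S100a10 lies on either side of it, and Anxa1 is filled for shSerpine2-1 and shSlpi-1.

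Of 8 genes of surface proteins named as receptors or partners of S100 proteins outside the cell, 7 were tested. Ager, the receptor RAGE, had a highest level of 13.2 normalized counts and was not tested. With both Serpine2 hairpins, where 21.5% of all genes were called, 3 fell: Tlr4 (-0.33, adjusted p = 0.00130), the pattern receptor bound by calprotectin, Plaur (-0.32, adjusted p = 0.00764), the urokinase receptor, and Sdc4 (-0.15, adjusted p = 0.0128), a heparan sulfate proteoglycan. With both Slpi hairpins, where 34.8% of all genes were called, Tlr4 (-0.40, adjusted p = 9.29e-05) and Egfr (-0.43, adjusted p = 0.0183) fell and the integrin subunit Itgb1 rose (0.32, adjusted p = 1.80e-04). Of 7 genes of the plasminogen system, on whose activation S100a10 acts, 6 were tested, of which 2 fell with the Serpine2 hairpins (10.8% of all genes fell) and 3 with the Slpi hairpins (18.3%). Plat, the tissue plasminogen activator, was at 155 and 142 normalized counts in shRenilla and 61.9 to 99.2 in all 8 knockdown libraries, and fell by 0.64 (adjusted p = 0.00269) and 0.85 (adjusted p = 1.21e-04). Plaur fell with the Serpine2 hairpins and Plgrkt (-0.52) and Plau (-0.13) with the Slpi hairpins.

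Other calcium-binding genes were counted for comparison. Of 14 EF-hand genes outside the S100 family, 2 rose and 1 fell with the Serpine2 hairpins and 3 rose and 2 fell with the Slpi hairpins, shares near the 21.5% and 34.8% of all genes called. Calm3, 1 of the calmodulin genes, rose in both (0.28 and 0.36), calpain subunit Capn2 with the Serpine2 hairpins (0.25), and Efhd2 (0.24) and Gca (0.27) with the Slpi hairpins, and Ppp3r1, the regulatory subunit of calcineurin, fell in both (-0.12 and -0.16). Of 10 annexins tested, 2 rose and 1 fell with the Serpine2 hairpins (21.5% of all genes called) and 5 rose and 1 fell with the Slpi hairpins (34.8%), among them Anxa3, which rose with the Slpi hairpins (0.28, adjusted p = 4.32e-04). Of the calcium-handling partners of S100a1, Atp2a2 rose in both comparisons (0.15 and 0.11) and Ryr1, at 9.19 to 36.9 normalized counts, with the Slpi hairpins (1.20, adjusted p = 0.00653). Il1a, whose protein is released together with S100a13, rose under shSerpine2-2, from 35.8 and 20.9 normalized counts in the control to 54.4 and 59.7.

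The pattern of each gene over the libraries was compared with that of 9896 genes with a mean of at least 50, by the correlation of log2 levels. The points of these correlations are the 10 libraries, which share the scaling of each library, so the values are descriptions. Among the S100 genes, r was 0.81 for S100a4 and S100a6, 0.77 for S100a6 and S100a10, 0.76 for S100a10 and S100a13, and 0.22 for S100a4 and S100a11. Over the 5 group means, r for the same pairs was 0.71, 0.66, 0.85 and -0.60, so S100a4 and S100a11 ran in opposite directions there. For S100a6 the closest genes were 3 ribosomal protein genes, Rpl22 (r = 0.997), Rps26 (0.992) and Rplp2 (0.990), whose reads may be shared with processed copies. Rpl22 was at 3957 and 4054 normalized counts in shRenilla and 4521 and 5932 in shSlpi-2, so it was higher in shSlpi-2 B than in shSlpi-2 A, as S100a6 was. With both Slpi hairpins Rplp2 was higher by 0.60, Rps26 by 0.47 and Rpl22 by 0.30 on the log2 scale. These genes were picked for likeness to S100a6 in the same libraries, so these rises follow from the choice and were not tested separately.

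For S100a4 the closest genes were Zfp593 (r = 0.971), Cda (0.960), which encodes cytidine deaminase, and Lgals3 (0.957), which encodes galectin-3. Lgals3 was at 1105 and 1117 normalized counts in shRenilla, 1419 and 1558 in shSerpine2-2, and 1090.3 and 1461 in shSlpi-2. It was 0.42 higher on the log2 scale under shSerpine2-2, as follows from its being picked for likeness to S100a4. For S100a11 they were Arf1 (0.943), a small GTPase of vesicle transport, Pdcd5 (0.942) and Hes1 (0.926), a target of Notch signalling. Arf1 shared with S100a11 the high values of shRenilla B (9377) and shSlpi-2 B (9357) against 7963 to 8718 elsewhere. The closest genes to S100a10 were Tm7sf2 (0.927), Ap3m2 (0.893) and Rpl22l1 (0.883), those to S100a1 were Vps29 (0.882), Snrpb2 (0.879) and the targeted gene Serpine2 (0.837), and those to S100a13 included Lsm5 (0.896) and Erdr1 (0.882).

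**Figure D5:**
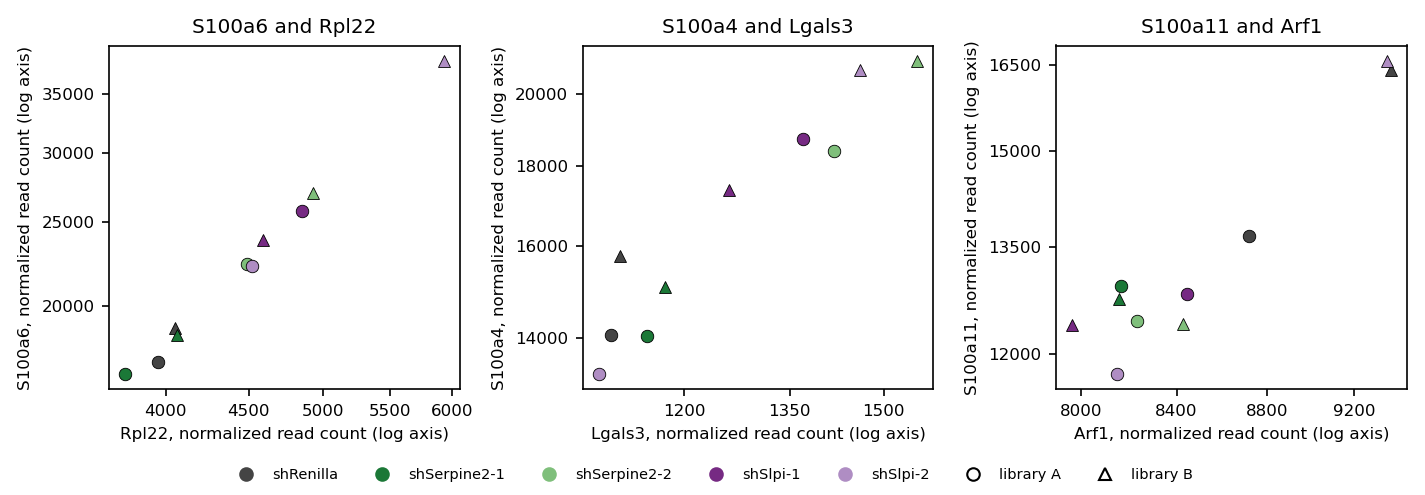
Normalized read count (both axes logarithmic) of S100a6 against Rpl22, S100a4 against Lgals3 and S100a11 against Arf1 in the 10 libraries, with colours for groups, circles for library A and triangles for library B. S100a6 and Rpl22 lie near a line (r = 0.997), and in the last panel the high points are shRenilla B and shSlpi-2 B.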

How the data were processed

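RNA was sequenced from 10 libraries of clone 4T1-T in 5 groups of 2. Groups and the letters A and B come from the sample titles. Per the labels' protocols, the NuGEN Ovation RNA-Seq V2 kit amplified the cDNA, a step that can change how strongly single transcripts are represented. Per the submitters' processing notes the authors used Bowtie2, HTSeq, DESeq and build mm10. The sources used here give no versions, annotation or use of strand.

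The authors deposited log2 values for 23479 entries. From the values alone, the numbers of the authors have the form of DESeq's variance-stabilizing transformation, with a floor of 6.733366499. Inverting it gave normalized counts, and dividing by the value of 1 read gave reads, of which 100% were whole within 0.01. The planned test on normalized counts was then run on these inverted values, since the transformation flattens differences of weakly expressed genes. Depth was 15877431 to 24026620 reads, and the limit for a count of 0 is 3 reads (2.30 to 3.48 normalized reads), for counting error only.

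Tests used limma 3.58.1 in R 4.3.3 on log2(normalized count + 1), with a mean-variance trend, on 12299 genes, those whose mean was 10 or more. The fit held 5 group means, so that all groups shared the estimate of spread. P-values are two-sided and Benjamini-Hochberg adjusted over all genes tested, with a threshold of 0.05. The script was tested on simulated data. Genes outside the 7 were named by a rule: up to 4 called genes of smallest p per list and comparison, a few known partners, and per member the 3 genes most like it. The values of some genes this takes are not reported here. The members and lists were chosen with earlier results of these data known. Alternatives changed the scale, pseudocount, filter, normalization, model, units and libraries.

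Gene positions are from GENCODE M21 on GRCm38. Promoters are from RefSeq on GRCm38.p6, in which 6 of the 7 genes matched. Motifs were searched on both strands of the 250 bases before the start. 27 entries whose names had turned into dates stayed in the fit and are not named.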

Additional observations from a re-analysis of the deposited data

Results flagged for a closer look

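For 4 values the effects of different hairpins on the same gene differed by a test of the difference itself. S100a13 differed between the Serpine2 and the Slpi hairpins by -0.67 on the log2 scale (limma adjusted p = 0.00652), with all 4 Serpine2 libraries below all 4 Slpi libraries. S100a6 differed in the same comparison by -0.37 (adjusted p = 0.0287). Between the hairpins against Serpine2, shSerpine2-1 was lower than shSerpine2-2 by -0.43 in S100a4 (adjusted p = 0.0337) and by -0.48 in S100a6 (adjusted p = 0.0478), with both shSerpine2-1 libraries below both shSerpine2-2 libraries in either gene. The knockdown of Serpine2 also differed between these hairpins, at 128 and 139 normalized counts in shSerpine2-1 and 489 and 514 in shSerpine2-2, and Slpi was lower in shSerpine2-1 (326 and 415) than in shSerpine2-2 (1111 and 1218). Their part in the difference was not tested.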

How the results depend on the processing

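Whether S100 genes were called depended on the model and on single libraries, with 6 genes tested in each comparison. With the mean-variance trend left out, 0 were called with both Slpi hairpins, 0 under shSlpi-2, 0 under shSerpine2-2, 0 between the Serpine2 hairpins and 1 between targets. With no filter, 0 were called under shSerpine2-2, 0 between the Serpine2 hairpins and 1 between targets. Fitting only the groups compared gave 4 with both Serpine2 hairpins, 3 under shSerpine2-1, 3 under shSlpi-1 and 1 between targets. Leaving out both shSlpi-2 libraries gave 4, 3 and 3 in the first 3 of these, 3 between targets, and 3 with the Slpi hairpins, then shSlpi-1 alone. With each hairpin's mean as 1 unit, 0 were called with both Slpi hairpins, where 0 of all genes were, and 0 between targets. Quantile normalization and scaling to library totals gave 1 under shSerpine2-2 and 1 between the Serpine2 hairpins, and the latter comparison also gave 1 with a mean of at least 50, 1 with upper-quartile scaling and 1 with voom. Upper-quartile scaling gave 1 under shSlpi-1 (S100a6) and 3 under shSerpine2-2, adding a fall of S100a11 (-0.30, adjusted p = 0.0399).

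Leaving out 1 library at a time gave 0 to 4 calls with both Serpine2 hairpins, 0 to 4 with both Slpi hairpins, 1 to 5 between targets, 0 to 3 under shSerpine2-1, 0 to 3 under shSerpine2-2, 0 to 3 under shSlpi-1, 1 to 5 under shSlpi-2, 0 to 2 between the Serpine2 hairpins and 0 to 4 between the Slpi hairpins. The highest counts came without a shSlpi-2 library. Every direction that turned and passed the test did so then. Directions that did not pass also turned with other libraries left out, such as that of S100a4 under shSerpine2-1 (-0.12 to 0.05 over all alternatives). Without shSlpi-2 A and without shSlpi-2 B, respectively, the change under shSlpi-2 was 0.47 and -0.17 for S100a4, 0.33 and -0.19 for S100a10, and 0.15 and -0.35 for S100a11. The difference between targets in S100a4 was -0.19 and 0.13, and that of shSlpi-1 from shSlpi-2 was -0.20 and 0.44 for S100a4 and -0.24 and 0.28 for S100a10. In the latter comparison S100a6 was at -0.63 and 0.15, called only in the first.

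Over all tested genes, deviations of same-lettered libraries from their group means correlated at -0.07 to 0.07. No label says what the letters A and B mean, and whether they pair the libraries for some genes was not tested. A replicate block for the letter gave 1 call with both Serpine2 hairpins (S100a11, -0.25, adjusted p = 0.0447) and 1 under shSlpi-1 (S100a6, 0.45, adjusted p = 0.0204), and added S100a11 under shSerpine2-2 (-0.27, adjusted p = 0.0459) and S100a10 between targets (-0.20, adjusted p = 0.0353). It removed no call of an S100 gene.

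Over all genes, the count with both Serpine2 hairpins was 2643, and 1632 with no filter, 1526 without the trend, 4176 with only the groups compared, 0 with hairpins as units and 766 to 3922 with 1 library left out. With both Slpi hairpins it was 4281, 0 with hairpins as units and 2401 to 5135 with 1 library left out. Depth limits S100a16, at 4 to 9 reads per library.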
